A study of Mus musculus with 9 samples.

Results

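The proteasome genes of mouse embryonic fibroblasts were followed through 3 h of hyperosmotic stress at a low and a high intensity. They were taken by name: protein coding genes whose symbol starts with Psma, Psmb, Psmc, Psmd, Psme, Psmf or Psmg and a number, which gave 50 of the 35275 genes listed, and 48 of the 13082 genes with enough counts to be tested. The cells were wild type MEFs of strain C57Bl/6, kept in iso-osmolar medium (300 mOsm, control) or moved to medium with 200 mM sucrose added (500 mOsm) or with 300 mM sucrose added (600 mOsm), and each group had 3 poly-A selected RNA libraries. The question asked of the data was whether the protease itself, its caps, its activators or its assembly factors changed at the mRNA level, and whether the response differed between the intensities. The labels do not say whether the 3 libraries of a group came from separate cultures, so p-values measure the spread between these libraries, which may be technical.

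The proteasome degrades proteins marked with ubiquitin. Its 20S core is a barrel of alpha and beta subunit rings in which a few beta subunits carry the active sites, and the 19S cap, made of a base with a ring of ATPases and a lid, recognises, unfolds and feeds in the substrate. Other caps, the PA28 activators, open the barrel without ATP, and interferon can exchange the active beta subunits for immunoproteasome versions that cut peptides for antigen presentation. In many cells the subunit genes are transcribed together under Nfe2l1, a membrane-held transcription factor that is cut loose when degradation falls short.

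Each library held between 21716042 and 26740832 counts on genes, given here as CPM, counts scaled to the depth of the library after TMM scaling, and 3 counts correspond to 0.113 to 0.137 CPM. Levels are compared between genes only as FPKM, the authors' fragments scaled to gene length and library depth. The number of genes with at least 1 count was 16452 to 16871 in the control libraries, 18920 to 19222 at 500 mOsm and 17846 to 18031 at 600 mOsm, and the 10 most abundant genes took 7.02 to 7.81% of the counts at 600 mOsm against 6.20 to 6.31% in the other libraries. All 7 fibroblast markers on the list checked were expressed, at a summed 20123 to 21323 CPM in control, 20197 to 21062 CPM at 500 mOsm and 22797 to 24531 CPM at 600 mOsm. A "called" gene passed an adjusted p of 0.05 in edgeR's quasi-likelihood test, adjusted over all genes tested, and the comparisons against control share the same 3 control libraries. In bulk RNA, fewer cells of a type and less RNA per cell cannot be told apart.

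Most of the proteasome genes were abundant in these fibroblasts. In control cells the highest was Psmb4, a structural beta subunit, with a mean of 425 ± 9.0 FPKM (SD, n = 3), followed by Psmb6 at 397 ± 16 FPKM, and this difference was larger than both SDs together. The lid subunit Psmd3 came next at 315 ± 3.8 FPKM, ahead of the core subunits Psmb7 at 297 ± 1.7 and Psmb3 at 294 ± 6.0 FPKM, whose levels did not differ beyond their spread. All 50 genes together took 0.979 to 0.997% of the counts in control, 0.940 to 1.0% at 500 mOsm and 1.02 to 1.04% at 600 mOsm.

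Subunits that stand in equal number in the particle did not have equal mRNA levels. Within the beta ring the control levels spanned a factor of 2.16, from Psmb5 at 197 to Psmb4 at 425 FPKM. The Psmb5 transcript shares 88.4% of its bases with other genes, so its level could depend on how reads were shared out. Over the 14 constitutive core genes the factor was 12.9, with Psma3 lowest at 33.1 FPKM, a value divided by a listed gene length of 2846 bases where the median core gene has 1162.5. The 17 cap genes spanned a factor of 9.62, from the ATPase Psmc6 at 32.8 to Psmd3 at 315 FPKM. The assembly chaperones, which are not part of the finished particle, lay lower, from Psmg3 at 3.76 to Psmg1 at 56.4 FPKM. These factors were alike in the stressed cells, at 12.9 and 13.4 for the core and 9.22 and 8.09 for the caps at 500 and 600 mOsm.

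**Figure D1:**
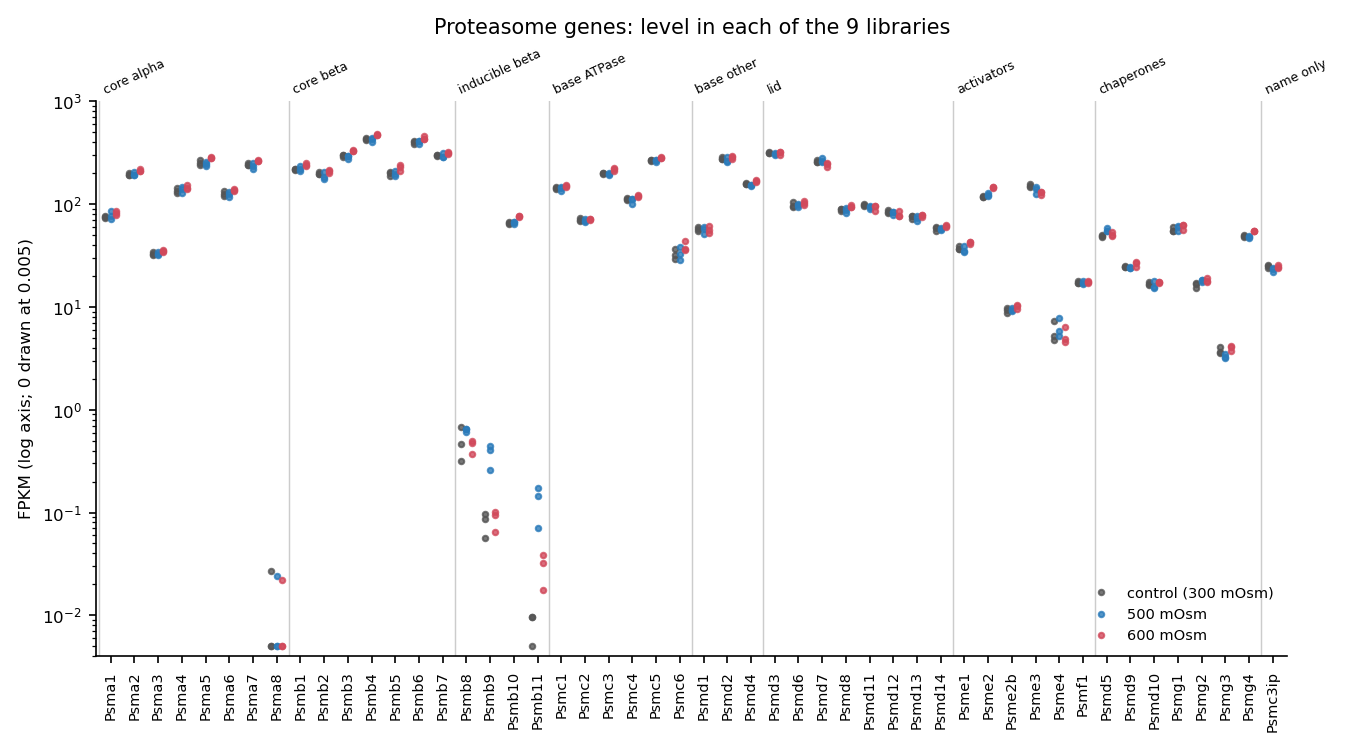
Level of each of the 50 proteasome genes in FPKM (log axis; 0 is drawn at 0.005) in the 3 control, 3 500 mOsm and 3 600 mOsm libraries, each point a library and the genes ordered by role. Constitutive core genes lie between 33.1 and 425 FPKM in control, while Psma8, Psmb8, Psmb9 and Psmb11 stay below 1 FPKM.

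At 500 mOsm the proteasome genes as a group stayed where they were in control. The median log2 fold change over the 48 tested genes was -0.02, against 0.01 over all genes tested, and 19 values were above 0 and 29 below. Called higher were 2 genes, Psmb9 and Psmd5 (4.17% of the 48, where 13.2% of all genes tested were called higher), and called lower were 0 (14.8% of all genes). DESeq2 called 3 higher, the same 2 and Psmb11, and 0 lower (beside 10.9 and 10.5% of all genes). In edgeR 3 genes had an unadjusted p under 0.05. The 95% interval of the log2 fold change lay within 0.5 of 0 for 45 of the 48 genes. At 600 mOsm against control this also held for 45, so this bound does not separate the intensities. Without overlap between the 3 libraries of each group, 3 genes lay above control and 3 below, where 20.1 and 20.8% of all genes did.

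At 600 mOsm a share of the proteasome genes, most of them core genes, was slightly higher. The test called 12 genes higher (25% of the 48, beside 15.1% of all genes) and 1 lower, Psme3 (2.08%, beside 20% of all genes). The median log2 fold change was 0.11, against 0.01 over all genes, and 41 of 48 values were above 0. The 3 libraries at 600 mOsm lay above all 3 control libraries in 29 of the 48 genes (23% of all genes tested did so) and below them in 2 (25.5% of all genes). Set against 500 mOsm instead, 600 mOsm had 16 proteasome genes higher (33.3%, beside 11.9% of all genes) and 1 lower, Psmb9 (17.2% of all genes), with a median of 0.12. There 25 genes lay above all 500 mOsm libraries (19.2% of all genes) and 4 below (22.3%). The changes were small: the largest called increase against control was 0.33 on the log2 scale, for Psme2.

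**Figure D2:**
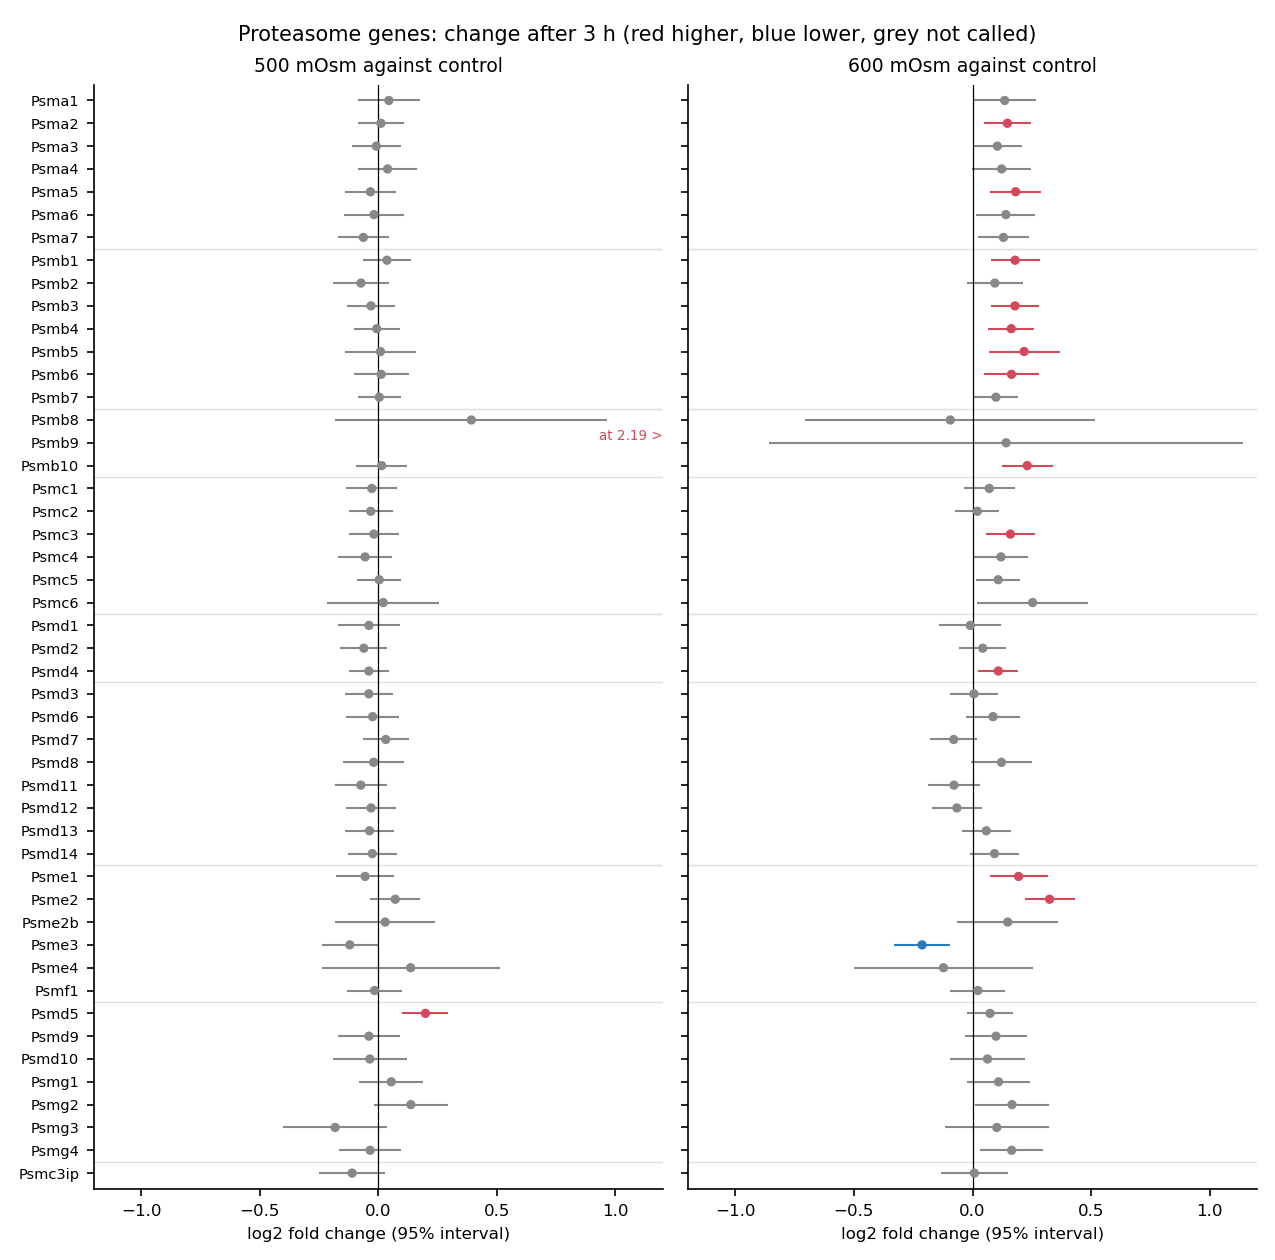
Log2 fold change with its 95% interval for the 48 tested proteasome genes at 500 mOsm (left) and 600 mOsm (right) against control, red where called higher, blue where called lower and grey where not called. At 500 mOsm nearly all points sit on 0 and Psmb9, at 2.19, is off the axis; at 600 mOsm the core genes (top rows) all lie to the right of 0 and Psme3 lies to the left.

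Gene length moved with the 600 mOsm result over the whole transcriptome, and proteasome genes are short, with a median listed length of 1529 bases against 3020 for all genes tested. Over all genes tested, the median log2 fold change at 600 mOsm against control fell from 0.18 in the shortest of 10 length bins to -0.22 in the longest. At 500 mOsm the same bins ran only from 0.06 to 0.00. In the bin with a median length of 1350.5 bases the all-gene median at 600 mOsm was 0.10 and 20.3% were called higher. Among 1191 abundant genes shorter than 2000 bases, 28 of them proteasome genes, the median was 0.13 and 38.8% were called higher. When counts were corrected for gene length in each library, the called proteasome genes went from 12 to 1 higher (Psme2) and from 1 to 2 lower (Psme3 and the lid gene Psmd7), with a median of 0.04. In that fit 14.6% of all genes tested were called higher and 16.8% lower. The medians of core, cap base and lid were then 0.05, 0.05 and 0.00. Against 500 mOsm the called proteasome genes went from 16 to 3 higher, namely Psmb3, Psme1 and Psme2, beside 10.7% of all genes. With length and GC content corrected together, an alternative chosen after the data were seen, 4 were higher than control (Psma5, Psmb3, Psmd5 and Psme2) and 8 were higher than at 500 mOsm. Of all genes tested, 17.8 and 14.2% were then called higher. The 600 mOsm count also fell when single libraries were left out. It was 5 without control replicate 3, 5 without 600 mOsm replicate 1 and 7 without 600 mOsm replicate 3. In those fits the share of all genes called higher fell as well, from 15.1% to 10.9, 10.4 and 10.6%. Against 500 mOsm the proteasome count was 8 without 500 mOsm replicate 1, without 600 mOsm replicate 1 or without 600 mOsm replicate 3. There the share of all genes fell from 11.9% to 8.66, 7.88 and 8.3%.

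**Figure D3:**
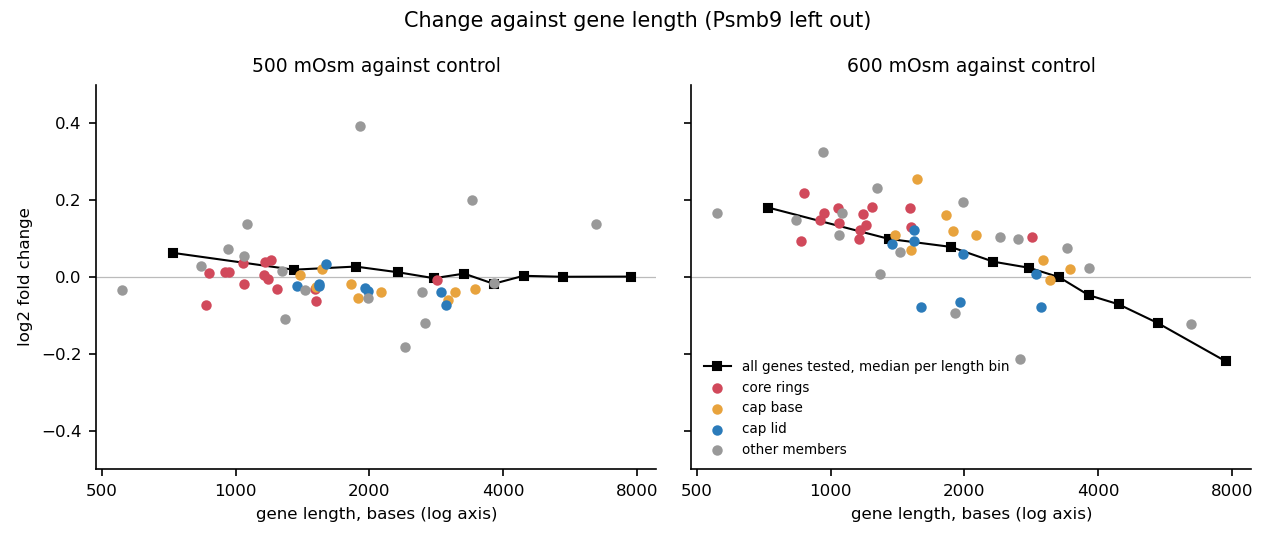
Log2 fold change of the tested proteasome genes (coloured by role) against listed gene length in bases (log axis) at 500 mOsm (left) and 600 mOsm (right) against control, with the all-gene median in 10 length bins as black squares; Psmb9 is left out. At 600 mOsm the squares fall from 0.18 to -0.22 and most core genes lie near them; at 500 mOsm they run from 0.06 to 0.00.

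In the 20S core, 7 of 14 constitutive genes were called higher at 600 mOsm (50%, beside 15.1% of all genes tested). Among the 1191 abundant genes shorter than 2000 bases the share was 38.8%. In all 14 core genes the 3 stressed libraries lay above the 3 control libraries, as in 23% of all genes tested. The core median was 0.14, and with the length correction it was 0.05 and 0 of the 14 were called. With that correction 14.6% of all genes were called higher and 16.8% lower. At 500 mOsm the core median was 0.00, with values from -0.07 to 0.04. The summed level of the 14 genes was 3062 to 3107 FPKM in control, 2939 to 3182 FPKM at 500 mOsm and 3369 to 3392 FPKM at 600 mOsm.

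The alpha subunits form the outer rings and the gate of the barrel. At 600 mOsm 2 of their 7 tested genes were called higher (28.6%, beside 15.1% of all genes). They were Psma5 (log2 fold change 0.18, SE 0.0489, adjusted p = 0.0121) and Psma2 (0.15, SE 0.0449, adjusted p = 0.0229), and the 7 values ran from 0.10 to 0.18. Psma5 measured 325, 312 and 296 CPM in control, 288, 309 and 314 CPM at 500 mOsm and 349, 350 and 358 CPM at 600 mOsm. The control and 500 mOsm ranges overlapped and the 600 mOsm libraries were the highest. The transcripts of Psma5 and Psma4 share 76.5 and 66.9% of their bases with other annotated genes at 95% identity or more, so how reads were shared out could alter their counts. Psma8, a subunit of the testis, was listed with 1 count in each group of 3 libraries and was not tested.

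The beta subunits form the inner rings. At 600 mOsm 5 of their 7 genes were called higher (71.4%, beside 15.1% of all genes), with a median of 0.16. At 500 mOsm 0 of 7 were called, with a median of 0.00. Psmb3, a structural beta subunit, measured 429, 452 and 445 CPM in control, 414, 448 and 438 CPM at 500 mOsm and 496, 487 and 519 CPM at 600 mOsm. Its log2 fold change at 600 mOsm was 0.18 against control (SE 0.0459, adjusted p = 0.00935) and 0.21 against 500 mOsm (SE 0.0459, adjusted p = 0.00426). Psmb1, another structural subunit, measured 223, 224 and 222 CPM in control, 216, 229 and 242 CPM at 500 mOsm and 253, 256 and 250 CPM at 600 mOsm. Both genes had their 3 highest libraries at 600 mOsm, and for both the 500 mOsm and control ranges overlapped. Psmb4, whose product is the last to join its ring, was 0.16 higher on the log2 scale (adjusted p = 0.0139), and Psmb2, at 0.09 (adjusted p = 0.203), was not called against control.

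The active sites of the constitutive core belong to Psmb6 (caspase-like), Psmb7 (trypsin-like) and Psmb5 (chymotrypsin-like, the target of bortezomib). Psmb5, on chr14:54614120-54617995 of mm10, minus strand, measured 161, 176 and 175 CPM in control, 171, 182 and 163 CPM at 500 mOsm and 200, 179 and 216 CPM at 600 mOsm. Its 600 mOsm libraries were above control, with the lowest close to the highest control library, and the log2 fold change was 0.22 (SE 0.069, adjusted p = 0.0276). Psmb6 measured 362, 399 and 385 CPM in control, 367, 400 and 389 CPM at 500 mOsm and 422, 411 and 451 CPM at 600 mOsm, a log2 fold change of 0.16 (SE 0.0533, adjusted p = 0.0302). Neither call held when control replicate 1 or 3 or 600 mOsm replicate 1 or 3 was left out, with values of 0.15 to 0.23 for Psmb5 and 0.12 to 0.17 for Psmb6. Psmb7 measured 342, 344 and 341 CPM in control, 335, 338 and 358 CPM at 500 mOsm and 359, 367 and 374 CPM at 600 mOsm. It was not called (0.10, adjusted p = 0.0872), although its 600 mOsm libraries did not overlap those of control. The transcript of Psmb5 shares 88.4% of its bases with other genes, longest with Gm3375.

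**Figure D4:**
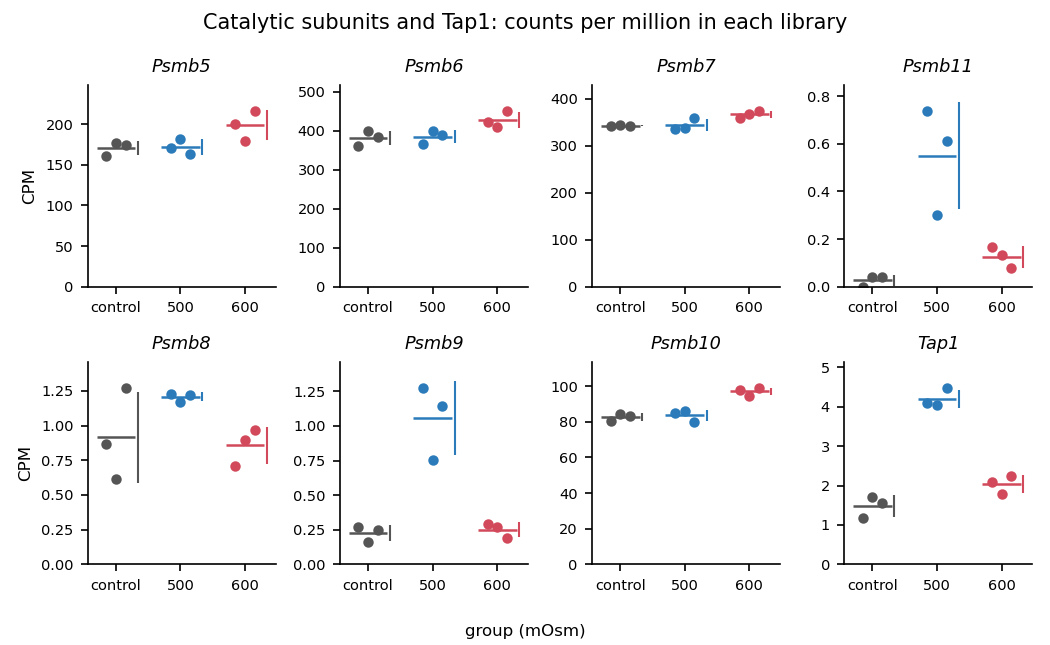
CPM of the constitutive catalytic genes Psmb5, Psmb6 and Psmb7, the thymus gene Psmb11, the inducible Psmb8, Psmb9 and Psmb10, and Tap1 in each library (points), with the group mean (line) and SD (bar, n = 3); each panel has its own axis from 0. Psmb9, Psmb11 and Tap1 are highest in the 500 mOsm libraries; Psmb10 is highest at 600 mOsm.

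The inducible catalytic genes did not move as a unit, and only Psmb10 was abundant. Psmb10, which replaces Psmb7, measured 80.6, 84.5 and 83.1 CPM in control, 85.0, 85.8 and 79.9 CPM at 500 mOsm and 97.8, 94.7 and 98.8 CPM at 600 mOsm. The 600 mOsm libraries were above all others, with a log2 fold change of 0.23 against control (SE 0.0491, adjusted p = 0.00304) and 0.22 against 500 mOsm (adjusted p = 0.00524), while with the length correction it was 0.14 and no longer called (adjusted p = 0.0518; 0.000776 to 0.163 over 21 alternatives). Psmb10 stood at 21.5 to 22.4% of the Psmb7 level in FPKM in control, 20.4 to 23.2% at 500 mOsm and 23.6 to 24.9% at 600 mOsm. Psmb8, which replaces Psmb5, was near the floor, at 0.865, 0.615 and 1.27 CPM in control, 1.23, 1.17 and 1.22 CPM at 500 mOsm and 0.712, 0.895 and 0.967 CPM at 600 mOsm. It was called in no comparison, its control libraries spanned both other groups, and its level was 0.159 to 0.342% of that of Psmb5 in every library.

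Psmb9, which replaces Psmb6, had the largest change among the tested proteasome genes, and it was at 500 mOsm. It measured 0.273, 0.164 and 0.245 CPM in control, 1.27, 0.754 and 1.14 CPM at 500 mOsm and 0.293, 0.269 and 0.193 CPM at 600 mOsm. These are few reads: 6, 4 and 6 counts in control, 31, 20 and 30 at 500 mOsm and 7, 6 and 5 at 600 mOsm. Psmb9 had enough counts to be tested only through its 500 mOsm libraries, the group where it is high. Its call, interval and rank among the tested genes carry that selection. The 500 mOsm libraries stood apart from both other groups, with a log2 fold change of 2.19 against control (SE 0.348, 95% interval 1.44 to 2.95, adjusted p = 0.00038). From 500 to 600 mOsm it fell by 2.05 on the log2 scale (SE 0.34, adjusted p = 0.000618), and 600 mOsm did not differ detectably from control (0.14, adjusted p = 0.843). The summed counts scaled by depth gave a ratio of 4.65 at 500 mOsm to control, with an exact Poisson interval of 2.70 to 8.52 that covers counting error only. On the log2(FPKM + 1) scale, which compresses low values, the change was 0.34. Psmb9 reached only 0.0632 to 0.116% of the Psmb6 level in FPKM at 500 mOsm, against 0.0138 to 0.0253% in control.

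Tap1, which carries peptides into the endoplasmic reticulum for antigen presentation, lies head to head with Psmb9. On chromosome 17 of GRCm38.p6 their RefSeq starts are 226 bases apart on opposite strands, and their promoter windows (250 bases before to 50 after the start) share 275 bases. In the authors' table the genes overlap by 212 bases on opposite strands, and whether counting used the strand is not given in the sources used here, so reads in the overlap cannot be assigned to either. Tap1 measured 1.18, 1.72 and 1.55 CPM in control, 4.10, 4.03 and 4.46 CPM at 500 mOsm and 2.09, 1.79 and 2.24 CPM at 600 mOsm. Like Psmb9 it was highest at 500 mOsm in all 3 libraries, at a log2 fold change of 1.49 against control (SE 0.17, adjusted p = 2.04e-05) and -1.03 for 600 against 500 mOsm (adjusted p = 0.000327). Tap2, next to them, had a log2 fold change of 0.34 at 500 mOsm and was not called (adjusted p = 0.108).

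Psmb11, the catalytic subunit of the thymus cortex, had too few counts to be tested in the main fit. It had 0, 1 and 1 in control, 18, 8 and 16 at 500 mOsm and 4, 3 and 2 at 600 mOsm. The summed 42 counts at 500 mOsm against 2 in control gave a ratio of 19.3 (exact Poisson interval 5.02 to 164), and 9 at 600 mOsm against 2 gave 4.42 (0.915 to 42.1). In a fit without the filter on low counts its log2 fold change at 500 mOsm was 4.03 (SE 0.799, adjusted p = 6.39e-06), a value that depends on how near-zero counts are handled. DESeq2 also called it higher at 500 mOsm. So did fits without a control library, a 600 mOsm library or 500 mOsm replicate 2, which also called it lower at 600 than at 500 mOsm. It passed the filter in those fits only through its 500 mOsm libraries. Its neighbours differed: before scaling for depth, Psmb5, 7315 bases away, held 12110 summed counts in control and 13258 at 500 mOsm and Acin1 19957 and 22576. In contrast, 4931414P19Rik held 487 and 1037, and Cdh24, 2436 bases away, 1511 and 2261.

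Some, though not all, other near-silent genes were also higher in the 500 mOsm libraries. The 5 epithelial markers summed to 0.0819 to 0.410 CPM in control, 3.85 to 4.84 CPM at 500 mOsm and 0.309 to 0.544 CPM at 600 mOsm, and Cdh1 made up most of this, at a mean of 3.47 CPM at 500 mOsm, while Epcam and Cldn4 stayed near 0. The 4 endothelial markers summed to 0.778 to 0.900, 12 to 13.4 and 2.13 to 3.18 CPM, of which Pecam1 held a mean of 11.1 CPM at 500 mOsm, while Cdh5 had a log2 fold change of 0.05 and was not called. The 5 macrophage and leukocyte markers found in the table were lower in sum, from 33.3 to 37.4 CPM in control to 28.2 to 30.2 CPM at 500 mOsm and 27.9 to 30.6 CPM at 600 mOsm. That sum follows the abundant Cd14 (log2 fold change -0.98 at 500 mOsm), whereas Itgam (5.28, from a mean of 0.0440 to 1.85 CPM), Cd74 (1.25) and Csf1r (0.38) were called higher. Itgam, like Psmb9, had enough counts to be tested only through its 500 mOsm libraries. The 4 muscle markers summed to 0.0818 to 0.451, 0.679 to 1.27 and 0.928 to 1.17 CPM. No marker was at 0 in every library. The number of genes with a count was also highest at 500 mOsm, and the part of these shifts in the Psmb9 and Psmb11 values was not tested.

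In the 19S base, 1 of the 6 ATPase genes was called higher at 600 mOsm (16.7%, beside 15.1% of all genes), with a median of 0.11 against -0.02 at 500 mOsm. That gene was Psmc3, at 362, 365 and 353 CPM in control, 346, 369 and 352 CPM at 500 mOsm and 406, 380 and 421 CPM at 600 mOsm (log2 fold change 0.16, SE 0.048, adjusted p = 0.0214). Its 600 mOsm libraries lay above all others, but Psmc3 overlaps Slc39a13 on the opposite strand over 4579 bases, and reads there could be counted to either gene. Psmc6 had the highest ATPase value, 0.25, with a wide spread (adjusted p = 0.0878), and Psmc2 the lowest, 0.02. Against 500 mOsm, Psmc3 and Psmc4 were called higher, both at 0.18 (adjusted p = 0.0142 and 0.0239). Of the other base genes, the ubiquitin receptor Psmd4 was called higher at 600 mOsm (0.11, SE 0.0389, adjusted p = 0.0456), a call kept in only 4 of 21 alternatives and in 1 of the 9 that leave out a library. The scaffold subunits Psmd1 (-0.01, adjusted p = 0.919) and Psmd2 (0.04, adjusted p = 0.495) were not called. The Psmc3 call was kept in 12 of 21.

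The lid, which holds the deubiquitinase that strips ubiquitin from the substrate, had 0 of the 8 genes that match the name rule called in any comparison by edgeR. Of all genes tested, 11.9 to 15.1% were called higher and 14.8 to 20% lower in the 3 comparisons. The small lid subunit Sem1, whose name falls outside the rule, was called higher at 600 mOsm and is given with the partner genes. At an unadjusted p under 0.05 it had 0 genes in each comparison against control and 3 in that of 600 against 500 mOsm. The 8 log2 fold changes at 600 mOsm ran from -0.08 to 0.12 with a median of 0.03, and at 500 mOsm the median was -0.03. All 8 intervals lay within 0.5 of 0 in each comparison. So did those of all 14 constitutive core genes tested, and this bound does not tell lid from core. The deubiquitinase gene itself, Psmd14, had a value of 0.09 at 600 mOsm (adjusted p = 0.147), and Psmd7, its partner, measured 421, 416 and 407 CPM in control, 406, 426 and 441 CPM at 500 mOsm and 399, 400 and 379 CPM at 600 mOsm. Psmd7 was thus lowest at 600 mOsm without overlap with control (log2 fold change -0.08, adjusted p = 0.195), and it was called lower with the length correction. The summed lid level was 1066 to 1091 FPKM in control, 1039 to 1079 at 500 mOsm and 1039 to 1074 at 600 mOsm. The difference between core and lid medians was not put to a test.

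The PA28 activators changed in opposite directions at 600 mOsm. Psme2 (PA28 beta) measured 111, 115 and 112 CPM in control, 114, 120 and 122 CPM at 500 mOsm and 143, 135 and 146 CPM at 600 mOsm. All 3 libraries at 600 mOsm exceeded the other 6, with log2 fold changes of 0.33 against control (SE 0.0486, adjusted p = 0.00026) and 0.25 against 500 mOsm (SE 0.0485, adjusted p = 0.00175). Psme1 (PA28 alpha), which forms rings with it, measured 77.0, 72.6 and 71.8 CPM in control, 67.0, 70.0 and 76.0 CPM at 500 mOsm and 85.5, 84.4 and 83.5 CPM at 600 mOsm, 0.19 above control (SE 0.0564, adjusted p = 0.018). Psme1 was no longer called with the length correction (0.15, adjusted p = 0.0652; 0.00989 to 0.267 over 21 alternatives) or without control replicate 2 or 3 or 600 mOsm replicate 1 (0.17 to 0.19). Psme3 (PA28 gamma), the nuclear homolog, measured 409, 389 and 394 CPM in control, 334, 380 and 383 CPM at 500 mOsm and 349, 344 and 335 CPM at 600 mOsm. It was lower than control without overlap in both stress groups, called at 600 mOsm (log2 fold change -0.21, SE 0.0542, adjusted p = 0.00906) and not at 500 mOsm (-0.12, adjusted p = 0.124).

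As a share of the Psme3 level in FPKM, Psme2 was 75.4 to 81.9% in control, 87.5 to 94.9% at 500 mOsm and 109 to 121% at 600 mOsm, so that the order of the pair turned round at 600 mOsm. Psme1 was 24.5 to 25.2%, 24.7 to 26.9% and 32.9 to 33.4% of Psme3. With the length correction the log2 fold changes at 600 mOsm were 0.20 for Psme2 (adjusted p = 0.00709) and -0.22 for Psme3 (adjusted p = 0.0088), and both stayed called. Over 21 alternatives the adjusted p ran from 7.86e-07 to 0.0235 for Psme2 and from 0.00206 to 0.0381 for Psme3. Psme2 shares 82.5% of its transcript with Psme2b, a near-identical copy, and reads could be split between them. Psme2b itself measured 7.15, 7.78 and 8.06 CPM in control, 7.67, 7.84 and 7.97 CPM at 500 mOsm and 8.71, 7.88 and 8.89 CPM at 600 mOsm, and was not called (adjusted p = 0.263).

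The remaining regulators did not pass the test. Psme4 (PA200), a large cap of the nucleus, varied most between replicates, at 33.1, 31.3 and 46.7 CPM in control, 50.9, 34 and 37.5 CPM at 500 mOsm and 31.6, 40.6 and 30.1 CPM at 600 mOsm. Its groups overlapped throughout. Psmf1 (PI31), known as an inhibitor of the core, was flat at 64.4, 68.6 and 64.7 CPM in control, 63.1, 64.8 and 67.7 CPM at 500 mOsm and 66.5, 65.0 and 69.3 CPM at 600 mOsm, with an interval at 600 mOsm inside 0.5 of 0. That held for 5 of the 6 activator and inhibitor genes, so this bound does not set Psmf1 apart.

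Among the assembly chaperones, Psmd5 alone was called against control, at 500 mOsm. Psmd5 holds ATPase subunits of the base during assembly, and it measured 167, 164 and 163 CPM in control, 184, 188 and 196 CPM at 500 mOsm and 172, 179 and 170 CPM at 600 mOsm. All 500 mOsm libraries were above the other 6, with a log2 fold change of 0.20 (SE 0.0446, adjusted p = 0.00449), while at 600 mOsm it was 0.07 (adjusted p = 0.223). At 500 mOsm it stayed called in all 21 alternatives, with values from 0.17 to 0.23. At 600 mOsm it was called as well with length and GC corrected (0.14, adjusted p = 0.0156; 0.0156 to 0.464 over 21 alternatives). The direct difference between the intensities was -0.13 and did not pass (adjusted p = 0.0519). The other base chaperones were not called. Psmd9 measured 63.6, 65.3 and 65.0 CPM in control, 62.0, 64.4 and 62.3 CPM at 500 mOsm and 71.0, 63.1 and 73.6 CPM at 600 mOsm, and was called higher (0.16, adjusted p = 0.0436) without 600 mOsm replicate 2. Psmd10 (gankyrin) measured 24.4, 23.6 and 23.5 CPM in control, 21.9, 22.6 and 25.2 CPM at 500 mOsm and 24.4, 24.9 and 25.4 CPM at 600 mOsm. Both overlapped control at 500 mOsm.

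The Psmg genes encode the chaperones on which the alpha ring is built. Psmg1 measured 56.7, 58.1 and 61.1 CPM in control, 56.8, 63.4 and 62.5 CPM at 500 mOsm and 65.9, 64.1 and 59.9 CPM at 600 mOsm, and its groups overlapped. Psmg2, its partner, measured 17.3, 16.4 and 18 CPM in control, 19.2, 18.5 and 19.2 CPM at 500 mOsm and 19.2, 19.8 and 19.1 CPM at 600 mOsm, above control in all 6 stressed libraries without being called (adjusted p = 0.185 and 0.0922). Psmg3 was the least abundant, at 8.42, 9.91 and 8.67 CPM in control, 7.67, 7.88 and 8.28 CPM at 500 mOsm and 9.0, 9.72 and 10.3 CPM at 600 mOsm. Its lowest libraries were those at 500 mOsm, and the difference of 600 from 500 mOsm was 0.28 (adjusted p = 0.052). Psmg4, which works with Psmg3, measured 26.5, 27.3 and 27.6 CPM in control, 26.6, 26.4 and 26.5 CPM at 500 mOsm and 30.5, 29.6 and 31.1 CPM at 600 mOsm. It was called higher against 500 mOsm (0.20, adjusted p = 0.026) and missed the threshold against control (0.17, adjusted p = 0.0513), where the length correction turned its sign (-0.01). The call against 500 mOsm was lost without any of the 3 libraries at 500 mOsm or 600 mOsm replicate 1 or 3 (0.18 to 0.20). Psmc3ip, which matches the name rule but encodes a recombination factor and no subunit, had a log2 fold change of 0.01 at 600 mOsm and -0.11 at 500 mOsm.

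RefSeq promoters were matched for 42 of the 50 genes, in 45 windows. The core of the antioxidant response element, TGACNNNGC on either strand, which Nfe2l1 and Nfe2l2 bind with small Maf proteins, was present in 13.3% of these windows and in 12.4% of 32851 windows of the whole table. An interferon-type motif, GAAANNGAA on either strand, was present in 15.6% (7 windows) and 8.56%. Antioxidant-type windows of Psmc6, Psmd9, Psmd12 and Psme4 belong to genes not called at 600 mOsm against control. So do interferon-type windows of Psmc2, Psmd9 and Psmg4. The matches are shown for the genes called higher at 600 mOsm that held one, with the motif in capitals (GAAANNGAA lies on the other strand in these, so its reverse complement is seen). All are GRCm38.p6 and written 5' to 3' on the strand of the gene.
Psmb5, chr14:54618024-54618052, minus strand, antioxidant type: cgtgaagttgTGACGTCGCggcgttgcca
Psmb6, chr11:70525338-70525366, plus strand, antioxidant type: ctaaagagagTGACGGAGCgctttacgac
Psmb3, chr11:97703262-97703290, plus strand, interferon type: acagtgacttTTCACTTTCcgctttccat
Psmb4, chr3:94886943-94886971, minus strand, interferon type: aaaggaccacTTCCGTTTCcggtgacgct
Psmd4, chr3:95042675-95042703, minus strand, interferon type: taaccaacctTTCCATTTCtgtggcgcct
Psme1, chr14:55578494-55578522, plus strand, interferon type: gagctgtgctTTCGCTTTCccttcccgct
The motif begins 47 bases before the start of Psmb5, 9 before that of Psmb6 and 11 after that of Psme1. No window of Psmb9, Tap1, Psmb10 or Psme2 held either motif, which says only that these letters are not in those bases.

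Around the proteasome, 40 partner genes were examined, of which 7 were called higher (17.5%, beside 13.2% of all genes) and 4 lower (10%, beside 14.8%) at 500 mOsm. At 600 mOsm 7 were higher (17.5%, beside 15.1%) and 11 lower (27.5%, beside 20%). Of the 7 regulators of proteasome gene transcription, 5 were called lower at 600 mOsm and 0 higher (beside 20 and 15.1% of all genes). The same held with the length correction (beside 16.8 and 14.6%). Nfe2l1 itself measured 385, 384 and 376 CPM in control, 333, 351 and 334 CPM at 500 mOsm and 269, 265 and 246 CPM at 600 mOsm. The 3 groups did not overlap, and the log2 fold changes against control were -0.17 at 500 mOsm (SE 0.046, adjusted p = 0.0148) and -0.55 at 600 mOsm (adjusted p = 2.09e-06). The change at 500 mOsm was not called without 500 mOsm replicate 1 (-0.16, adjusted p = 0.0525) or with the length correction (-0.14, adjusted p = 0.0686; 0.00637 to 0.12 over 21 alternatives), which left that at 600 mOsm at -0.45 (adjusted p = 2.43e-05). Ddi2, the protease that releases Nfe2l1, measured 78.3, 72.5 and 73.1 CPM in control, 72.9, 67.9 and 64.0 CPM at 500 mOsm and 50.02, 53.6 and 49.6 CPM at 600 mOsm, and fell by 0.55 on the log2 scale at 600 mOsm (adjusted p = 2.92e-05). Ddi2 is listed at 9553 bases, and with the length correction its change was -0.28 (adjusted p = 0.00499; 0.00634 with length and GC).

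Nfe2l2, the oxidative stress relative of Nfe2l1, was lower at both intensities, at 49.5, 41.5 and 44.4 CPM in control, 27.7, 26.6 and 29.2 CPM at 500 mOsm and 26.0, 28.5 and 26.1 CPM at 600 mOsm. Its log2 fold changes were -0.70 and -0.75 (adjusted p = 2.04e-05 and 1.37e-05), and 600 did not differ detectably from 500 mOsm (-0.05, adjusted p = 0.682). Mafg, a small Maf partner of these factors, measured 199, 198 and 198 CPM in control, 165, 172 and 156 CPM at 500 mOsm and 151, 134 and 142 CPM at 600 mOsm. It was lower at 500 mOsm by 0.27 and at 600 mOsm by 0.48 on the log2 scale, called both times. Maff, another small Maf, went both ways, from 77.5, 89.8 and 82.7 CPM in control up to 108, 107 and 105 CPM at 500 mOsm and down to 56.0, 47.2 and 50.5 CPM at 600 mOsm.

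Among the genes that encode ubiquitin itself, Ubb, a polyubiquitin gene induced by many stresses, measured 973, 1073 and 1015 CPM in control, 1316, 1395 and 1319 CPM at 500 mOsm and 1347, 1333 and 1402 CPM at 600 mOsm. All 6 stressed libraries lay above control, and it was called higher at both intensities by 0.40 and 0.42 on the log2 scale. Rps27a, a ribosomal protein fused to ubiquitin, was called higher at 600 mOsm (0.24, adjusted p = 0.00175), but not with the length correction (0.11, adjusted p = 0.142; 7.22e-05 to 0.223 over 21 alternatives). The Ubb and Rps27a transcripts share 77.8 and 37.8% of their bases with other genes, so how reads were shared out could alter their counts.

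**Figure D5:**
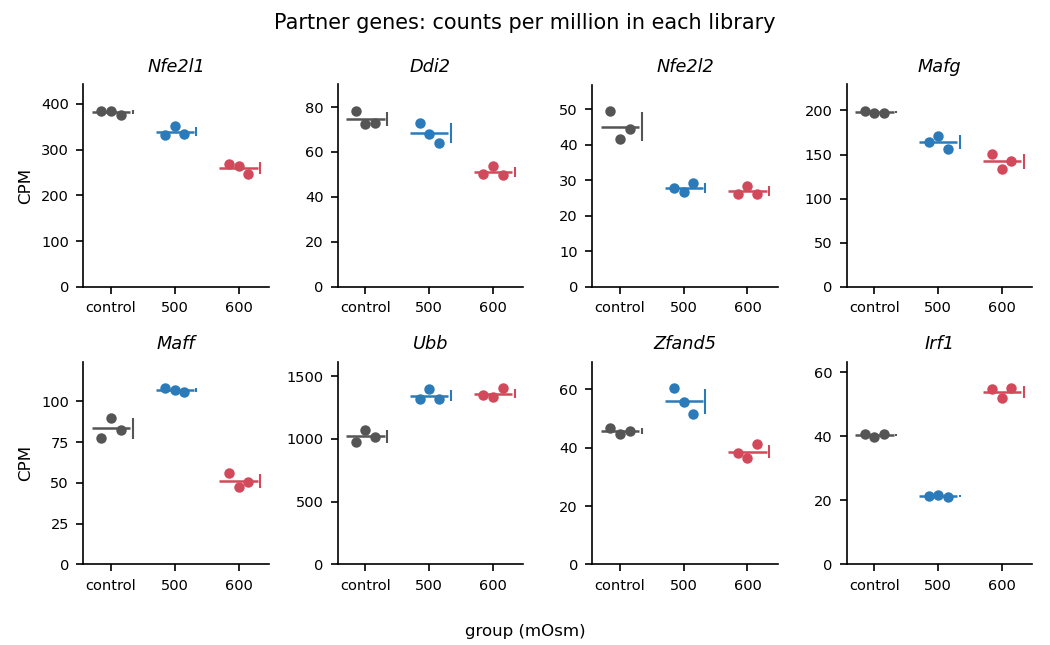
CPM of the transcription regulators Nfe2l1, Ddi2, Nfe2l2, Mafg and Maff, the polyubiquitin gene Ubb, the proteasome-bound factor Zfand5, and Irf1 in each library (points), with the group mean (line) and SD (bar, n = 3); each panel has its own axis from 0. Nfe2l1 steps down over the 3 groups, Ubb is above control in both stress groups, Zfand5 is highest at 500 mOsm, and Irf1 is lowest at 500 and highest at 600 mOsm.

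Of the 14 proteasome-bound and shuttle factors, 6 were called lower and 1 higher at 600 mOsm (beside 20 and 15.1% of all genes). With the length correction 4 were lower and 0 higher (beside 16.8 and 14.6%). Lower were the shuttle factors Ubqln1, Ubqln2 and Ubqln4, the deubiquitinase Usp14 and the zinc finger genes Zfand5 and Zfand2a, with log2 fold changes from -0.17 for Ubqln1 to -0.46 for Ubqln2 (adjusted p = 7.6e-05), and with the length correction Ubqln2, Ubqln4, Usp14 and Zfand2a stayed called. Higher was Akirin2 (0.25, adjusted p = 0.031), which carries proteasomes into the nucleus and was called at 500 mOsm too (0.23, adjusted p = 0.0489), and which was not called at 600 mOsm with the length correction. At 500 mOsm Zfand5 was called higher (0.29, adjusted p = 0.00689). Among the 3 subunit and maturation genes whose names fall outside the rule, Sem1, listed as Shfm1 and part of the lid, was called higher at 600 mOsm, at 117, 106 and 113 CPM in control, 116, 111 and 122 CPM at 500 mOsm and 141, 132 and 140 CPM at 600 mOsm (0.30, adjusted p = 0.00133). This call held with the length correction (0.22, adjusted p = 0.0137; 5e-05 to 0.017 over 21 alternatives). The ubiquitin receptor Adrm1 (0.13, adjusted p = 0.352) and the core maturation factor Pomp (0.08, adjusted p = 0.289) were not called.

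Antigen-processing genes next to the immunoproteasome had their own patterns. Irf1, an activator of Psmb9 and Tap1 in the interferon response, measured 40.7, 39.9 and 40.6 CPM in control, 21.3, 21.8 and 21 CPM at 500 mOsm and 54.8, 51.8 and 55.0 CPM at 600 mOsm. It was lowest where Psmb9 and Tap1 were highest, with called log2 fold changes of -0.92 at 500 mOsm and 0.41 at 600 mOsm. A relation between these mRNA levels was not tested. At 600 mOsm Tapbp (0.32, adjusted p = 0.00115) and B2m (0.24, adjusted p = 0.00712), both needed to load peptides on MHC class I, were called higher. With the length correction Tapbp was 0.33 (adjusted p = 0.00125) and B2m 0.11 and not called (adjusted p = 0.243; 0.206 with length and GC). At 500 mOsm Tapbp had 0.14 (adjusted p = 0.098; 0.027 to 0.265 over 21 alternatives) and B2m 0.10 (adjusted p = 0.249), and for B2m the difference between the intensities was not called (0.14, adjusted p = 0.0886).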

How the data were processed

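The authors deposited, per the labels for mm10, raw counts per gene, FPKM and gene length; the submitters' processing notes name CASAVA 1.8 and STAR, and the counting tool and its strand setting are not given in the sources used here. The deposited group means and the authors' own fold changes and p-values were not used. Reads were paired-end, 150 bases.

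Counts of all 9 libraries were fitted together with edgeR 4.0.16 in R 4.3.3 (TMM scaling, filterByExpr, quasi-likelihood test, Benjamini-Hochberg adjustment over all genes tested, threshold 0.05), after a test on simulated data. Fold changes come from the deposited counts and levels from the deposited FPKM. Shared sequence was searched with blastn 2.17.0 in GENCODE transcripts; promoters are RefSeq's. Alternatives were DESeq2 1.42.0, limma 3.58.1 on log2(FPKM + 1), other scalings, filters, thresholds, a replicate block, length and GC corrections, and leaving out each library. Members, partners and lists were chosen with earlier results of these data known. Library values are given for the 4 called members per direction and comparison with the smallest p, the catalytic genes, activators and chaperones. They are also given for the reported partners among the 4 per direction and comparison with the smallest p. Of these, Rps27a, Tapbp and Ubqln2 are given by fold change only. Psma5, Psmc3, Psmd7, Ddi2 and the other partners with values were chosen after their values were seen. Intervals on counts cover counting error only. Some partner genes are not reported here.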

Additional observations from a re-analysis of the deposited data

Results flagged for a closer look

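Called changes against control in opposite directions at 500 and 600 mOsm singled out 3 partner genes, for which the difference between the intensities was itself called. From 500 to 600 mOsm, Zfand5 changed by -0.5315 on the log2 scale, Maff by -1.061 and Irf1 by 1.334. With the length correction Zfand5 was no longer called lower than control at 600 mOsm (-0.16, adjusted p = 0.1). No proteasome gene was called in opposite directions. The pseudogene Psmb5-ps, outside the protein coding genes compared, held 7 summed counts at 600 mOsm, 1 at 500 mOsm and 0 in control, where 3 counts is the floor.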

How the results depend on the processing

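At 500 mOsm, Psmb9 and Psmd5 were called higher in every alternative that tested them. With at least 10 counts required in every library, a filter that drops Psmb9, 1 member was higher, beside 11% of all genes. Where filterByExpr set the genes tested, Psmb9 passed only through its 500 mOsm libraries, the group where it is high. Its calls in those alternatives carry that selection. Partners called higher numbered 11 at 500 mOsm with length and GC corrected, beside 17.4% of all genes.

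At 600 mOsm against control, members called higher numbered 3 at an adjusted p under 0.01, 1 with the length correction, 1 with length and replicate block, and 4 with length and GC. In the same order, 7.61, 14.6, 11.4 and 17.8% of all genes were called higher. Members called lower numbered 2 with length and 2 with length and GC, beside 16.8 and 19.2% of all genes. The median was 0.085 with limma on FPKM, 0.043 with length, 0.044 with length and block and 0.049 with length and GC. Partners called higher numbered 4 with length and block and 11 with length and GC. Leaving out each library gave 5 to 13 members higher, beside 10.4 to 15.4% of all genes.

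For 600 against 500 mOsm, members called higher numbered 9 with only the 6 libraries compared, 10 with the replicate block, 5 at an adjusted p under 0.01, 3 with length, 0 with length and block and 8 with length and GC. In the same order, 9.94, 8.81, 6.04, 10.7, 8.06 and 14.2% of all genes were called higher. Members called lower numbered 2 with library size alone, 3 without a filter, 2 with limma, 2 with length and 2 with length and GC. In the same order, 17.7, 11.1, 16.8, 14.3 and 17.1% of all genes were called lower. The median was 0.048 with length, 0.049 with length and block and 0.052 with length and GC. Partners called higher numbered 1 with length, 1 with length and block and 9 with length and GC. Leaving out each library gave 8 to 17 members higher and 1 to 2 lower, beside 7.88 to 11.6 and 14 to 17.4% of all genes.

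Values that changed sign were Psmg4 at 600 mOsm against control (-0.012 with length, -0.012 with length and block and -0.053 with length and GC) and Psmb7 at 600 against 500 mOsm (-0.031 with length and GC). Beyond these, of 99 named gene and comparison pairs 42 were called under no setting, and 21 of those changed sign. The correction for length and GC was added after the data were seen. GC values were found for all 48 members and 99.5% of genes tested.

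Replicate numbers did not pair the libraries: deviations of same-numbered libraries correlated at -0.205 on average (-0.563 to 0.481), and of others at 0.105. With the replicate block the members called higher and lower were 2 and 0 at 500 mOsm, 8 and 1 at 600 mOsm against control, and 10 and 1 at 600 against 500 mOsm. The shares of all genes were 10.9 and 12.8%, 11.7 and 17.4%, and 8.81 and 14.8%. Counts limit Psmb8, Psmb9 and Psmb11, and with 3 libraries a group small changes in noisy genes such as Psme4 were not detectable. Apart from the length and GC corrections, whose values are given, the cause of these shifts was not tested.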
